A study of Bos taurus with 18 samples.

Results

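The comparison covers the sperm methylomes of 6 Holstein bulls labelled for cow conception rate (CCR), out of 18 bulls profiled by whole-genome bisulfite sequencing. H08, H09 and L06 carry the label high CCR, and H06, L08 and L09 carry the label low CCR. The letters H and L in these names do not give the CCR group. CCR scores how readily lactating cows conceive when inseminated, and for a bull it describes the predicted fertility of his daughters, as the transmitting ability he passes on, and not that of his own semen. All 6 are adult bulls, and each is 1 sample, so n = 3 per group. Some of the bulls carry further labels. H09 is also high for gestation length and low for body depth, L08 is high for body depth, and H06 and L09 are low for sire calving ease. H08 and L06 carry no other label. Calving ease and CCR cannot be told apart in 2 of the 3 low-CCR bulls.

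The members are autosomal CpG positions that at least 2 bulls of each group list, with 1 percent value per bull and position. There were 3284326 such positions among 32941856 listed in any of the 6 bulls, and 380208 were listed in all 6. The bulls list very different numbers of autosomal positions. In the high group these were 21784160 in H08, 4870931 in H09 and 18246972 in L06. In the low group they were 13338349 in H06, 4509705 in L08 and 6287637 in L09. A position is listed only where the authors had at least 10 reads, but the number of reads is not listed for these bulls, so the depth behind a single value is unknown. Positions were averaged in tiles, windows of 2000 bp, and 102168 of the 693858 tiles that hold such a position had at least 3 of them in every bull and were tested. The build is UMD 3.1, and BTA stands for the numbered cattle autosomes.

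In mammals, DNA methylation is the addition of a methyl group to cytosine, mostly where a guanine follows, and it is copied to daughter cells at cell division. Sperm DNA is methylated over most of its length and is free of methylation mainly at CpG-rich promoters, while the pattern is laid down in the male germ line before the chromatin is repacked with protamines. After fertilisation most of the paternal pattern is removed, and imprinted regions are among those that keep it. No annotation of the build was used beyond the coordinates of 25 fine-mapped genes, so promoters, imprinted regions and sperm marker genes were not analysed here.

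The first question was whether the bulls of the high and low groups differ in their overall level. At the 380208 positions listed in all 6 bulls, mean methylation was 60.8% in H08, 60.01% in H09 and 57.1% in L06, against 62.4% in H06, 60.6% in L08 and 60.1% in L09. The groups overlapped, because H08 lay above L08 and L09. The means were 59.3% ± 1.96 (SD, n = 3) in high CCR and 61.0% ± 1.18 (SD, n = 3) in low CCR, a difference of -1.71 points (exact permutation test, two-sided, p = 0.4). With 3 bulls against 3, no such test can give a p below 0.1.

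L06 and H06 stood at the ends of the whole series. At the 114810 positions listed in all 18 bulls, which are mostly weakly methylated, L06 had the lowest mean of the 18, at 23.9%, and H06 the highest, at 30.1%. The other CCR bulls had 27.2% (H08), 27.4% (H09), 28.1% (L08) and 27.4% (L09), within the range of the 12 bulls without a CCR label, which was 25.7% to 29.4% with a median of 26.9%. At these positions the groups did not overlap, with a difference of -2.40 points (exact permutation test, p = 0.1). However, the gap between the groups, from H09 to L09, was only 0.084 points. Without L06, the difference at the 380208 shared positions was -0.61 points, and without H06 it was -1.05 points.

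**Figure D1:**
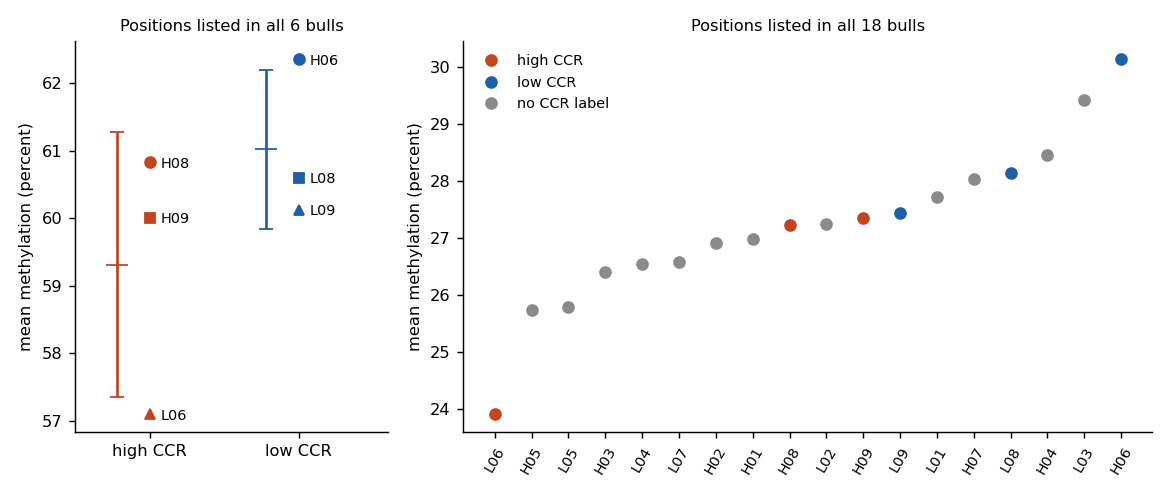
Mean methylation per bull in percent, on the left at the 380208 positions listed in all 6 CCR bulls (points are bulls, the bar at the side is the group mean with its SD) and on the right at the 114810 positions listed in all 18 bulls, ordered from lowest to highest. L06 is the lowest of the 18 and H06 the highest, with the other 4 CCR bulls between 27.2% and 28.1%.

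Of 4 shares of positions at the ends of the methylation scale, 2 separated the groups. The share of shared positions at exactly 100% was 24.2% in H08, 25.8% in H09 and 22.4% in L06, against 29.3% in H06, 27.4% in L08 and 27.6% in L09. Every high-CCR bull lay below every low-CCR bull, with a difference of -3.94 points (exact permutation test, p = 0.1). The share of positions at 20% or lower was 29.9%, 29.3% and 32.1% in H08, H09 and L06, against 26.8%, 28.9% and 28.9% in H06, L08 and L09, a difference of 2.26 points in the other direction (exact permutation test, p = 0.1). By contrast, the share at 80% or higher overlapped, with 53.2%, 51.5% and 47.5% in H08, H09 and L06, against 53.7%, 52.2% and 50.9% in H06, L08 and L09 (exact permutation test, p = 0.6). The share at exactly 0% was 6.44% ± 2.43 in high CCR and 6.57% ± 2.45 in low CCR (SD, n = 3 each; exact permutation test, p = 0.9). Over all autosomal positions each bull lists, which differ between bulls, the groups overlapped in the share at exactly 100%. That share was 47.0%, 42.2% and 39.1% in H08, H09 and L06, against 48.6%, 42.7% and 45.0% in H06, L08 and L09. A value of exactly 100% is more easily reached with few reads, and the reads per position are not known for these bulls. Over the 9 comparisons of this kind the smallest adjusted p of the exact permutation tests was 0.3.

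Bulls of the same group were not more alike than bulls of different groups. Across the 380208 shared positions, the correlation between bulls was 0.942 to 0.954 for the 3 pairs of high-CCR bulls, 0.944 to 0.948 for the 3 pairs of low-CCR bulls and 0.937 to 0.956 for the 9 pairs across groups. The mean absolute difference per position had a median of 8.59 points within high CCR, 8.45 within low CCR and 8.26 across groups. No pair looked like 1 library listed again.

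To find regions that differ, each tile was tested with limma, after log2 transformation of the methylated over the unmethylated percent, with Benjamini-Hochberg adjustment over all 102168 tiles. A tile was called at an adjusted p under 0.05 and a difference over 5 points. No tile was called (0.0%), and the smallest adjusted p was 0.998. At an unadjusted p under 0.05 there were 3867 tiles, of which 2762 also differed by over 5 points. A logistic regression on reads, the kind of test the study used, was also run with each position counted as 10 reads. It called 2149 tiles at an adjusted p under 0.01 and a difference over 5 points, 1883 lower and 266 higher in high CCR. The study had the counted reads, so 2149 does not stand for its result on CCR. The groups did not overlap in 46.4% of the 2149 tiles, against 6.51% (lower) and 2.35% (higher) of all tiles. A higher share is built in, because called tiles were picked by the difference between the same groups. Without L06 the regression called 764 lower and 511 higher, without H06 1035 and 358, and without H08 3958 and 225. This test pools the reads of a group and does not take up the spread between its bulls.

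The tile differences leaned towards lower methylation in high CCR. The median difference was -0.92 points, and 62.4% of tiles were lower in high CCR. A loss of over 5 points was seen in 14689 tiles and a gain of over 5 points in 5177. Without L06 the median was -0.11 points, and without H06 it was -0.59 points. With both left out it was 0.19 points, so that H08 and H09 were together slightly above L08 and L09.

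In 6648 tiles (6.51%) every high-CCR bull lay below every low-CCR bull, and in 2400 tiles (2.35%) every one lay above. Thus 73.5% of the tiles without overlap were losses in high CCR. This share was 53.1% without L06, 60.6% without H06 and between 71.3% and 80.1% without any of the other 4 bulls. It was 44.1% without both L06 and H06, 41.3% when the bulls' means over all tiles were set equal and 53.5% when their medians were set equal. Setting means or medians equal fixes the balance of losses and gains by its construction, and with fewer bulls both counts rise. Without L06 there were 9384 losses and 8287 gains. Other choices of tiles moved the share of losses among tiles without overlap in both directions. With at least 1 position per bull (291240 tiles) it fell to 69.2%. With the tile borders shifted (102266 tiles) it was nearly unchanged, at 73.8%. Under 3 choices that asked for more positions or for shared positions the share was higher. It was 90.5% of the tiles without overlap where each bull had at least 10 positions (8720 tiles), 77.6% where only positions listed in all 6 bulls were used (31713 tiles) and 99.5% in wider tiles of 20000 bp with at least 20 such positions (1558 tiles).

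**Figure D2:**
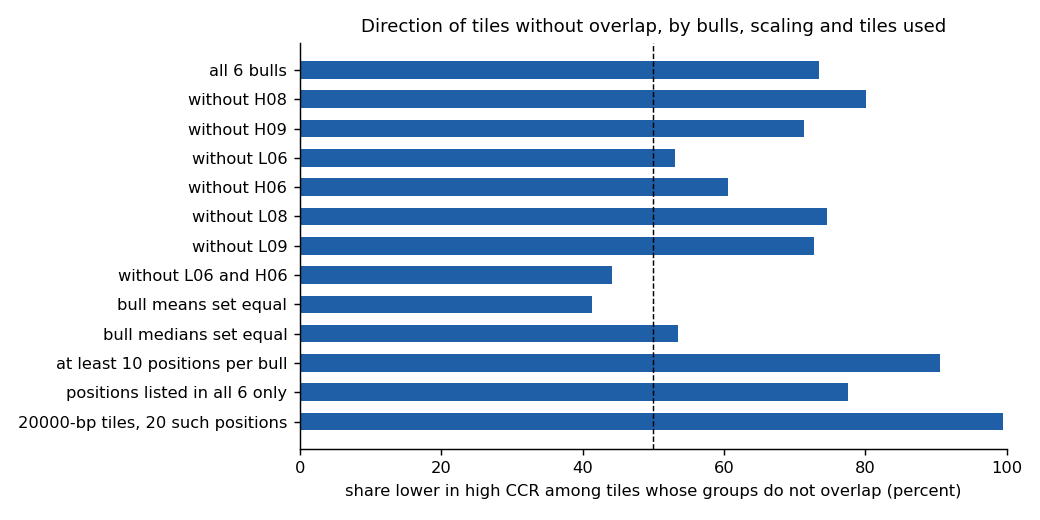
Share, in percent, of tiles lower in high CCR among all tiles whose groups do not overlap (bars), with all 6 bulls, with bulls left out, with the bulls' means or medians over tiles set equal, and with other demands on tiles. The dashed line marks equal numbers of losses and gains, and the share is 73.5% with all 6 bulls, 44.1% without L06 and H06 and 99.5% in the wider tiles.

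The losses varied with how methylated a region was in the 12 bulls without a CCR label, which took no part in the comparison. The classes were not tested against each other. In the 5553 tiles with 0 to 20% methylation in those bulls, tile methylation averaged 11.5% in H08, 12.2% in H09 and 9.85% in L06, against 14.4% in H06, 12.6% in L08 and 12.5% in L09. Here all 3 high-CCR bulls lay below all 3 low-CCR bulls, although the gap, from H09 to L09, was 0.30 points. The difference was -1.99 points (exact permutation test, p = 0.1; adjusted over the 3 classes, p = 0.3), and it was -1.33 points without L06 and -1.39 points without H06. In this class 12.01% of tiles had all high-CCR bulls below all low-CCR bulls and 0.70% had them above, against 6.51% and 2.35% of all tiles.

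The largest spread between bulls was found at intermediate methylation. In the 13975 tiles at 20 to 80%, the means were 59.7% in H08, 57.3% in H09 and 49.5% in L06, against 62.4% in H06, 59.7% in L08 and 56.1% in L09. L06 lay below all the other bulls, while H08 equalled L08 and H09 exceeded L09. The difference of -3.86 points (exact permutation test, p = 0.5) fell to -0.85 points without L06. A tile difference over 10 points was seen in 20.9% of these tiles, against 2.47% of the weakly and 2.55% of the highly methylated ones. In the 82640 tiles at 80 to 100% the difference was -0.80 points with all bulls and -0.01 points without L06.

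Finer classes were added after the values had been seen. At 5 to 20% methylation, 4863 tiles averaged 12.7%, 13.5% and 10.9% in H08, H09 and L06, against 15.9%, 13.96% and 13.8% in H06, L08 and L09, and the difference was -2.20 points. The 690 tiles under 5% had 2.90%, 2.83% and 2.74% in the high group and 3.55%, 3.36% and 3.15% in the low group, a difference of -0.53 points. In both classes the means of the groups did not overlap (exact permutation test, p = 0.1 in each). The gaps were 0.30 points at 5 to 20% and 0.25 points under 5%. Adjusted over the finer classes, the exact permutation p was 0.4 in each. The shares of single tiles without overlap differed, with 12.7% lower and 0.37% higher in high CCR at 5 to 20%. Under 5% they were 6.96% and 3.04%, close to the 6.51% and 2.35% of all tiles. At 40 to 60%, L06 had 43.5%, against 50.9% to 57.6% in the other 5 bulls. Therefore the class means separated the groups in weakly methylated tiles, while L06 deviated most in those at 40 to 80%.

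**Figure D3:**
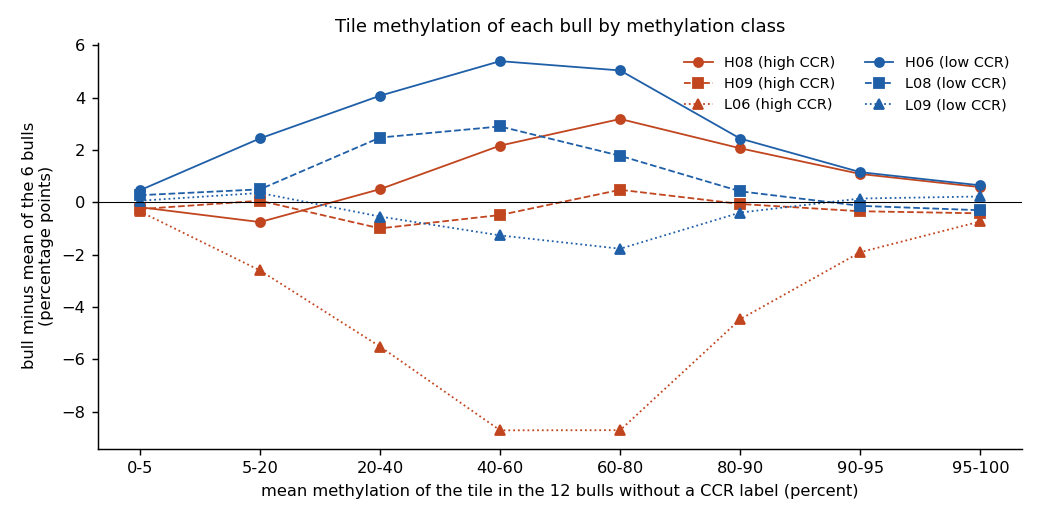
Mean tile methylation of each bull minus the mean of the 6 bulls, in percentage points, for tiles grouped by their mean methylation in the 12 bulls without a CCR label. L06 falls furthest below the others between 40 and 80%, H06 lies above all others in each class, and in the classes under 20% the 3 low-CCR bulls lie above the 3 high-CCR bulls.

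Differences by the number of CpG positions in a tile were smaller. Tiles were ordered by the number of positions the 12 other bulls list in them and divided into 4 groups. In the group with the most positions (59 to 417), the means were 73.5%, 73.0% and 70.7% in H08, H09 and L06, against 74.8%, 73.8% and 73.3% in H06, L08 and L09, a difference of -1.57 points (exact permutation test, p = 0.2). The other 3 groups of tiles differed by -1.13 to -1.31 points. Without L06 the difference was -0.72 points in the group with the most positions and -0.14, -0.029 and 0.076 points in the others, from more to fewer positions. Tiles within 1 Mb of the first or last listed position of a chromosome differed by -1.98 points, those at 1 to 5 Mb by -1.26 and the rest by -1.26. Without L06 these were -0.76, -0.29 and -0.15 points. None of these had an exact permutation p below 0.2.

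Every autosome had a negative median tile difference. The lowest medians were on BTA6 (-1.28 points), BTA4 (-1.21), BTA7 (-1.21) and BTA21 (-1.18), and the values closest to 0 were on BTA13 (-0.58), BTA26 (-0.68), BTA24 (-0.68) and BTA23 (-0.70). Neighbours in this order differ by far less than the bulls do. On BTA6, mean tile methylation was 78.7%, 77.0% and 73.9% in H08, H09 and L06, against 79.5%, 77.9% and 76.8% in H06, L08 and L09. On BTA13 it was 88.7%, 87.6% and 85.7%, against 89.1%, 87.8% and 87.7%. No autosome separated the groups, with exact permutation p between 0.3 and 0.8. Without L06 the median was below 0 on 25 of 29 autosomes, and on BTA25 it became 0.29.

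**Figure D4:**
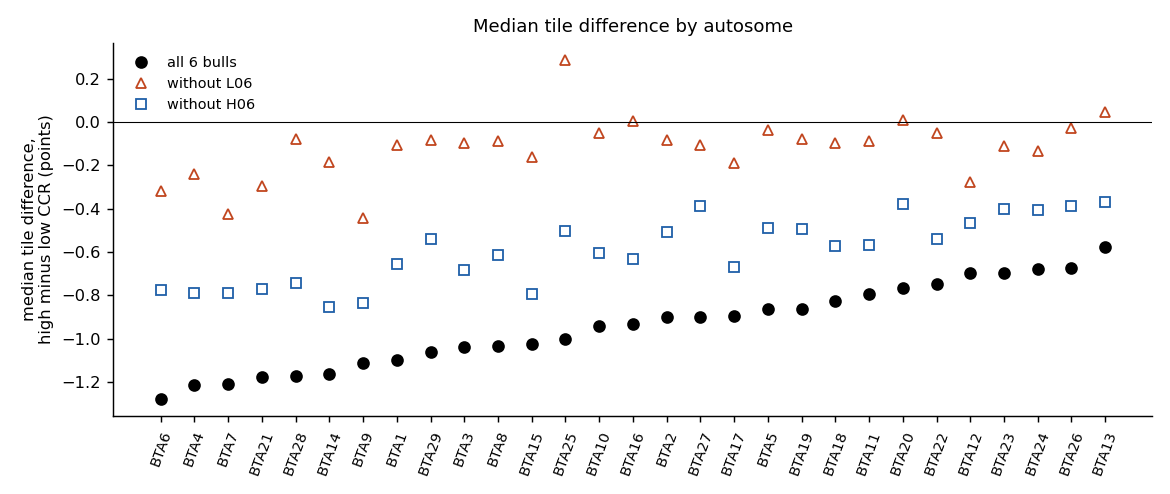
Median tile difference in percentage points, high minus low CCR, for each of the 29 autosomes, with all 6 bulls (filled circles), without L06 (triangles) and without H06 (squares). All 29 medians lie between -1.28 and -0.58 with 6 bulls, and most lie close to 0 without L06.

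At a finer scale, 13126 tested tiles held at least 5 positions listed in all 6 bulls, which allows the bulls to be compared at the same positions. The groups did not overlap in 1366 of them, 1209 lower (9.21%) and 157 higher (1.20%) in high CCR, against 6.51% and 2.35% of all tiles. The 6 largest losses and 6 largest gains were chosen by the difference at those positions, so their size describes them and is not a test. None passed the limma test, each with an adjusted p of 0.998.

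The largest loss lay on BTA23 at 47144001 to 47146000. Tile methylation there was 66.4% in H08, 62.6% in H09 and 65.1% in L06, against 82.8% in H06, 78.4% in L08 and 75.3% in L09, with a gap of 8.92 points between the groups. At its 5 shared positions the high-CCR bulls spread more widely, with 16.8%, 44.1% and 35.5% in H08, H09 and L06, against 74.0%, 63.9% and 52.3% in H06, L08 and L09, and the group means differed by -31.2 points. Over the whole tile, the 11 other bulls with at least 3 of these positions ranged from 44.2% to 100% with a median of 79.0%.

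The second loss, on BTA16 at 67144001 to 67146000, was at intermediate methylation. H08, H09 and L06 had 44.9%, 26.1% and 46.4%, and H06, L08 and L09 had 69.7%, 76.7% and 61.1%, a difference of -30.02 points over the tile and -29.9 points at 9 shared positions. The gap between the groups was 14.7 points, and the 11 other bulls spanned it, from 36.3% to 81.9%, with a median of 49.9%.

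A similar pattern was found on BTA14 at 888001 to 890000, within 1 Mb of the start of the chromosome. There the high group had 33.6%, 15.8% and 15.9% in H08, H09 and L06, and the low group 59.0%, 50.9% and 43.7% in H06, L08 and L09. The difference was -28.0 points at 15 shared positions, the most of any of these tiles. The 12 other bulls ranged from 8.50% to 51.8% with a median of 30.2%, so the low-CCR bulls stood at the upper end of the series and the high-CCR bulls in its middle and below.

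On BTA8 at 644001 to 646000, H08, H09 and L06 had 69.3%, 73.2% and 54.2%, against 85.1%, 88.4% and 87.2% in H06, L08 and L09. The low group was tight here, and 2 of the high-CCR bulls lay below the lowest of 11 other bulls, at 70.2%.

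The remaining losses rested more on single bulls. On BTA9 at 104750001 to 104752000, H08, H09 and L06 had 28.6%, 30.9% and 14.98%, and H06 and L09 had 34.3% and 35.6%, while L08 alone had 69.1%. The difference of -21.5 points was -10.1 points without L08. On BTA25 at 27356001 to 27358000, H08, H09 and L06 had 79.5%, 66.3% and 31.3%, against 95.1%, 79.7% and 82.4% in H06, L08 and L09. H08 and L08 were almost equal in that tile, and L06 lay far below all others, so that the difference of -26.7 points was -12.8 points without L06.

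In the tiles with gains every CCR bull had 65.7% or more, and the differences at the shared positions were smaller. On BTA24 at 33298001 to 33300000, H08, H09 and L06 had 88.7%, 81.7% and 86.3%, against 70.5%, 76.4% and 65.7% in H06, L08 and L09. The difference was 14.7 points over the tile and 18.4 points at 6 shared positions, and H08 and L06 exceeded all 11 other bulls, which reached 85.6%. On BTA22 at 11660001 to 11662000, the high group had 91.1%, 96.7% and 94.3% and the low group 89.4%, 87.6% and 67.9%. L09 made most of this difference, as the gap between the groups, from H08 to H06, was 1.69 points. The difference of 12.4 points was 5.51 points without L09. The other 4 gains, 2 of them on BTA3 and the others on BTA22 and BTA19, differed by 12.1 to 14.3 points at 5 to 8 shared positions. Over the whole tiles they differed by 6.67 to 11.5 points, with a gap between the groups of only 0.21 points in the tile on BTA22.

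**Figure D5:**
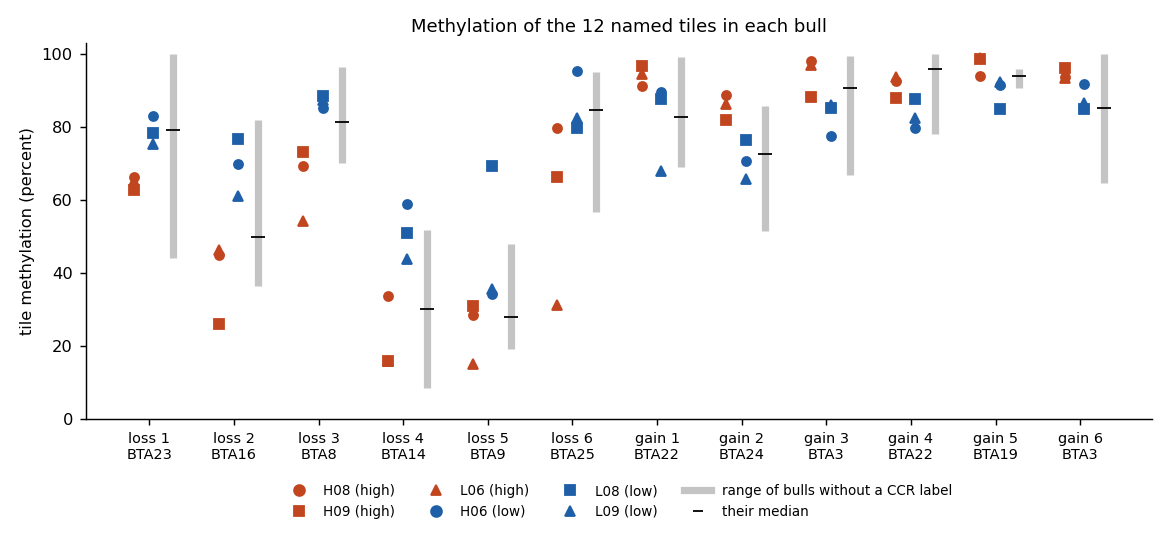
Methylation, in percent, of the 6 tiles with the largest losses and the 6 with the largest gains in high CCR, for each CCR bull (red, high, blue, low) beside the range (grey) and median (dash) of the bulls without a CCR label. The losses span 15% to 95% and vary widely between bulls, the gains lie above 65%, and in 4 of the 12 tiles the range of the unlabelled bulls covers all 6 CCR bulls.

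The 10 tiles with the smallest p, looked at because none was called, differed from these. In 8 of them all 3 low-CCR bulls had exactly 100% and the high-CCR bulls between 77.1% and 94.9%, with as few as 3 positions in a bull. The exception in the other direction was a tile on BTA15 at 33972001 to 33974000, with 96.3%, 94.5% and 95.8% in H08, H09 and L06, against 55.3%, 49.8% and 71.9% in H06, L08 and L09. Its groups were 22.6 points apart, yet it held only 2 positions listed in all 6 bulls, and 7 other bulls ranged from 54.0% to 100% with a median of 93.9%.

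Tiles without overlap could also lie side by side. Counting runs of adjoining tested tiles in the same direction, there were 191 runs of 2 or more tiles with losses and 26 with gains. There were 18 runs of 3 or more tiles, all of them losses. Of all tested tiles, 6.51% were such losses and 2.35% such gains, so runs of losses would be the more frequent even without clustering. Whether these tiles cluster was not tested. The longest were 5 tiles. On BTA15 at 83448001 to 83458000, mean methylation over the 5 tiles was 56.1% in H08, 46.7% in H09 and 49.0% in L06, against 68.8% in H06, 64.7% in L08 and 63.5% in L09, a difference of -15.03 points. The gap between the groups was 7.37 points, and L06 was not the lowest bull. The bulls without a CCR label that had a value in each tile ranged from 51.4% to 69.3%, with a median of 57.0%.

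A weakly methylated run of 5 tiles lay on BTA18 at 57662001 to 57672000. H08, H09 and L06 had 9.98%, 15.4% and 11.8%, against 20.9%, 21.0% and 18.3% in H06, L08 and L09, and the unlabelled bulls had 12.4% to 20.2%. H08 was the lowest of the 6 bulls in this run. A run of 4 tiles on BTA18 at 50884001 to 50892000 had 37.8%, 28.8% and 32.4% in H08, H09 and L06, against 49.3%, 44.4% and 45.0% in H06, L08 and L09. In these 3 runs, chosen as the longest, H09 or H08 was the lowest bull. H06 was the highest in the run on BTA15 and in the run of 4 tiles. Runs were not counted again with L06 or H06 left out.

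The longest runs of gains had 2 tiles. The one on BTA15 at 33972001 to 33976000, which starts with the tile described above, had 96.6%, 94.9% and 95.1% in H08, H09 and L06, against 61.7%, 61.8% and 77.7% in H06, L08 and L09. The unlabelled bulls there ranged from 61.8% to 95.8%. Runs on BTA9 at 98736001 to 98740000 and on BTA13 at 38506001 to 38510000 had differences of 10.3 and 9.33 points.

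Adjoining positions gave a check within the bulls. In 4284 tested tiles, at least 3 pairs of positions lay 1 bp apart with no other listed position beside them, as the cytosines on the opposite strands of a CpG do. The tile difference from the first positions of the pairs had a median of -2.07 points and that from the second positions -2.06 points, and the signs matched in 78.0% of tiles. Where the first positions showed a loss of over 5 points (749 tiles), the second positions had a median of -6.26 points and were lower in 91.6%, against 81.9% of all 4284 tiles. Where the first showed a gain of over 5 points (109 tiles), the second had a median of 2.06 points and were higher in 66.1%. Because 81.9% of all 4284 tiles were lower at the second positions, the shares for losses and gains cannot be compared directly. Both strands come from the same 6 bulls and their libraries, so they add no bulls to the comparison.

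At single positions the same limma test called 24482 of 3284326, 13672 lower (0.416%) and 10810 higher (0.329%) in high CCR. These calls were nearly all at the edge of the scale. In 99.8% of them all listed bulls of at least 1 group had exactly 0 or exactly 100%, which held for 37.0% of all positions, and the median size was 8.62 points. At the adjoining position of a called position, the median difference in the same direction was 0.38 points and the sign matched in 51.0%, compared with 51.6% for all 183442 pairs. Tested on percent values without the log, 9 positions were called. Without L09 the number of calls was 0, and without H09 it was 97319.

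Large differences at a position were shared between strands. Where a position differed by over 40 points, its neighbour differed by a median of 32.5 points in the same direction, and the sign matched in 92.4% of 1152 such positions. For differences over 20 points this was 11.1 points and 78.4%.

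Opposite states were rare. Among the 380208 positions listed in all 6 bulls, only 1 was at 20% or lower in every bull of a group and at 80% or higher in every bull of the other. This position, 71737562 on BTA5, had 0% in H08, H09 and L06, against 100% in H06 and L08 and 85.7% in L09, and the 10 other bulls that list it spanned 0% to 90%. With limits of 30% and 70% there were 3. Over all positions listed in at least 2 bulls of each group there were 291, 147 lower and 144 higher in high CCR.

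Of the 9 positions called on percent values, 8 were of this kind. At 50755079 on BTA24, all 3 high-CCR bulls had 100%, and H06 and L09 had 0%, with no value in L08 and 0% to 50% in 6 other bulls. At 42242493 on BTA24, all 3 high-CCR bulls had 0%, against 100% in H06 and L08. At 63945429 on BTA19, all 6 bulls had a value, 69.2%, 70% and 70% in H08, H09 and L06 and 100% in H06, L08 and L09. Between them, 4 of the 9 lay on BTA24, and 8 of the 9 had no value in 1 of the 6 bulls. A cytosine converted by bisulfite and a thymine in the genome read alike, and genotypes were not analysed here.

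Finally, the 25 genes that the study had fine-mapped for gestation length were described with 2000 bp on both sides. The choice of genes did not rest on CCR, although H09 is also a high bull for gestation length. Of these genes, 17 had at least 1 tested tile, and 94 tiles were tested in all. No tile was called. In 8 tiles (8.51%) the high-CCR bulls lay below and in 2 tiles (2.13%) above all low-CCR bulls, close to the 6.51% and 2.35% of all tiles. The median difference was -0.67 points, and -0.42 points without L06. The share at an unadjusted limma p under 0.05 was 4.26%, against 3.78% of all tiles.

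The means of the tested tiles did not overlap between groups in 3 genes, each lower in high CCR. CDKL1 on BTA10, which encodes a protein kinase related to the cyclin-dependent kinases, had 93.95%, 92.2% and 92.9% in H08, H09 and L06, against 97.8%, 95.5% and 95.4% in H06, L08 and L09 over 3 tiles. Its difference of -3.19 points was the largest of the 17 genes, and 7 other bulls ranged from 93.0% to 97.5%. CYSTM1 on BTA7 had 78.8%, 76.95% and 75.05%, against 79.0%, 78.9% and 79.8%, over 6 tiles, a difference of -2.28 points with H08 and L08 nearly equal. MROH1 on BTA14 had a single tested tile, with a difference of -1.93 points that turned to 1.25 points at its 2 positions listed in all 6 bulls. Each of the 3 had an exact permutation p of 0.1, the smallest possible and the value that any gene without overlap has. Adjusted over the 17 genes compared in this way, the exact permutation p of each was 0.57.

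In NRG2 on BTA7, which encodes a neuregulin, a ligand of ErbB receptors, the 12 tiles averaged 94.0%, 92.4% and 86.5% in H08, H09 and L06, against 94.4%, 93.9% and 93.0% in H06, L08 and L09. Most of its -2.83 points came from L06. DNAH2 on BTA19, a dynein heavy chain of the type that drives beating cilia and flagella, averaged 92.2%, 92.0% and 91.0%, against 92.5%, 91.7% and 93.9%, with overlapping groups. In its tile at 28060001, however, the bulls had 93.9%, 94.4% and 95.3%, against 99.0%, 96.9% and 98.2%, a difference of -3.45 points that fell to -2.56 points at 6 shared positions.

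Tiles in which all high-CCR bulls lay above all low-CCR bulls were found in WWP2 on BTA18, a ubiquitin ligase, and in MYH10 on BTA19, a non-muscle myosin heavy chain. In the WWP2 tile at 37022001 the high group had 92.9%, 96.7% and 92.3% and the low group 89.8%, 88.8% and 88.5%, whereas at 36964001 the high group had 88.1%, 78.8% and 86.1% and the low group 92.8%, 88.6% and 98.5%. Over their listed positions the 2 WWP2 tiles thus went in opposite directions, but the first had -3.99 points at its only position listed in all 6 bulls, and the second had no such position. Over all 22 tiles of the gene the difference was 0.49 points (exact permutation test, p = 0.8). Over the 16 tiles of MYH10 the mean difference was 0.47 points (exact permutation test, p = 0.6) and the median of its tiles was -0.69 points.

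The tile of ZNF613, a zinc finger gene on BTA18, at 58126001 to 58128000 was chosen because it had the largest change of that gene in the study. That choice rests on bulls of the same series. The tile could not be tested, as H09 lists none of the positions of the comparison there. Using every position each bull lists, its mean was 46.1% in H08 from 28 positions, 5% in H09 from 4 and 9.42% in L06 from 12, against 49.3% in H06 from 20, 28.6% in L08 from 10 and 46.7% in L09 from 11. H08 lay with the low-CCR bulls, so the groups overlapped. The difference was -21.3 points, with an SD of 22.6 in high CCR and 11.3 in low CCR (exact permutation test, p = 0.2). The 12 other bulls ranged from 13.7% to 96.0%. Only 2 positions of the tile were listed in at least 2 bulls of each group. At the first of these, 58126202, H08 and L06 had 33.3% and 16.7% and H06, L08 and L09 had 20%, 30% and 10%, so that at this position the groups overlapped.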

How the data were processed

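Sperm DNA of 18 Holstein bulls was sequenced after bisulfite treatment. According to the submitters' processing notes, the authors trimmed reads with Trim Galore 0.4.0, checked them with FastQC 0.11.2, mapped them to UMD 3.1 with Bowtie2 and extracted methylation with Bismark 0.14.5. What the authors deposited is a percent of methylated reads per CpG position, for positions read at least 10 times. For 6 bulls without a CCR label, the deposited values also hold counts of reads, which were not used. Depth is therefore unknown for the CCR bulls.

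Groups came from the sample labels. The members and gene lists were chosen with earlier results of these data known. Each bull's percents were averaged over tiles of 2000 bp with at least 3 positions in each of the 6 bulls. Differences were tested with limma 3.58.1 (squeezeVar, R 4.3.3) on log2((percent + 1)/(100 - percent + 1)) with Benjamini-Hochberg adjustment, in place of the study's logistic regression, which needs read counts. A called tile or position had an adjusted p under 0.05 and a difference over 5 points. Means of bulls were tested by exact two-sided permutation over all 20 assignments. Classes of methylation and position number were set from all positions listed in the 12 bulls without a CCR label. Values of these bulls for named tiles and genes use the positions of the comparison, with at least 3 per bull.

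Named tiles were all called tiles where 10 or fewer (there were none, and the 10 with the smallest p were looked at afterwards), the 6 largest losses and gains among tiles without overlap and with at least 5 positions listed in all 6 bulls (at most 1 per 10000 bp), the 3 longest runs in each direction, tiles without overlap in 25 genes whose UMD 3.1 coordinates came with the study, the ZNF613 tile with the largest change there, and the 4 highest and 4 lowest chromosomes. The fits were tested on simulated data. Alternatives were other scales, offsets, position minimums, tile widths and limits, and each bull left out in turn. Gene lists other than the 25 fine-mapped genes, and sperm markers, were not analysed here. Computations used Python 3.11.15, NumPy 2.4.6, SciPy 1.17.1 and pandas 2.3.3, and figures matplotlib 3.10.9.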

Additional observations from a re-analysis of the deposited data

How the results depend on the processing

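The count of 0 tiles called by limma stayed 0 under every limma alternative run, and a logistic regression with 10 reads per position called 2149, or from 1275 without L06 to 4183 without H08. Losses without overlap numbered 6648 and ranged from 9384 to 16731 with a bull left out. Gains numbered 2400 and ranged from 4145 to 8287, since fewer bulls overlap less often. Losses and gains were 893 and 94 of 8720 tiles (10.2% and 1.08%) with at least 10 positions per bull, 192 and 1 of 1558 (12.3% and 0.064%) in tiles of 20000 bp with at least 20 positions listed in all 6 bulls, 13932 and 17649 without L06 and H06, 3487 and 4965 with bull means set equal, and 4592 and 3994 with bull medians set equal. The median tile difference of -0.92 points reversed to 0.36 with bull means set equal and to 0.19 without L06 and H06, and was -1.65 with at least 10 positions per bull and -1.93 in the tiles of 20000 bp. It ranged from -1.45 to -0.11 with 1 bull left out. In the group of tiles with the fewest positions, the difference of -1.31 points ranged from -2.59 to 0.076 with 1 bull left out, reversing without L06. The 24482 called positions became 9 on the percent scale, 3363 where only positions listed in all 6 bulls were used, and 0 to 97319 with 1 bull left out. The single position in opposite states became 0 at limits of 10% and 90%, 3 at 30% and 70%, and 291 with 2 bulls of each group. The other 121 alternatives of main results and all 132 of named tiles kept their direction, and they moved by no more than 1 SD between bulls or, for counts, by no more than 1.5 times, taken as a share of the tiles tested for tiles without overlap. For the named tiles the direction was fixed in advance. Their groups do not overlap, so leaving out 1 bull cannot change the sign. The limit of 1 SD was not a test there either. Leaving out 1 of 3 bulls cannot move a difference of group means by more than 1 SD between those bulls. This also holds for bull means and class means with 1 bull left out. Runs of 3 or more tiles numbered 18, and 21 among the 31713 tiles with positions listed in all 6 bulls. With 3 bulls per group 1 SD is wide, so sizes could still change much. Without L06, the difference fell from -3.86 to -0.85 points in tiles at 20 to 80% and from -0.80 to -0.01 points in tiles at 80 to 100%. The tiles of 20000 bp, the scalings, the joint removal of L06 and H06, the finer classes, the limits of 30% and 70%, the looser listing and the comparison of adjoining positions were added after seeing the data. No paired analysis was possible because replicate numbers only name the bulls.

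The limits are the 3 bulls per group, for which no exact test can give a p below 0.1, the unknown number of reads, the small number of positions that H09 and L08 list, the standing of L06 and H06 at the ends of the 18 bulls, and the other trait labels. Which of these bear on the differences was not tested.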
